A study of Mus musculus with 12 samples.

Results

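The comparison asked how the liver of control mice differed between the hypothyroid and the euthyroid state. Its members were the 6 arrays of control animals out of the 12 arrays of the series, chosen by their titles, with 3 hypothyroid (replicates 17, 18 and 20) and 3 euthyroid (replicates 13, 14 and 15). The other 6 arrays were of L-NCoR∆ID mutants, again 3 hypothyroid and 3 euthyroid. This line is known for lacking the receptor-interacting domains of the nuclear receptor corepressor NCoR in the liver. The series was made to examine the part of NCoR in positive and negative regulation of genes by thyroid state. The labels do not state how the mice were made hypothyroid, nor their hormone levels, age, sex or strain, nor what allele or transgene the controls carry, so a drug or diet given to the hypothyroid groups cannot be told apart from the loss of hormone. Each sample was total liver RNA on an Affymetrix mouse Gene 1.0 ST array, which reads each transcript with a set of short probes called a transcript cluster. Apart from the replicate numbers, the labels do not say that the arrays of a group came from separate animals, so the p-values measure the spread between these samples.

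Thyroid hormone enters the hepatocyte through membrane carriers, is activated or cleared by deiodinases, and binds nuclear receptors that sit on DNA with a retinoid X receptor partner. With hormone the receptor recruits coactivators, and without it corepressors such as NCoR. In liver the hormone is known for its effects on lipid and sterol metabolism, on energy use, and on type 1 deiodinase, whose gene is used as a readout of hormone action.

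The RNA carried the hepatocyte genes that a liver sample should hold. Albumin (Alb) lay between 13.45 and 13.63 on the log2 scale over the 6 control arrays, and apolipoprotein A-I (Apoa1) between 12.32 and 12.61. Array medians lay between 4.196 and 4.316 in both states. The euthyroid arrays were less alike than the hypothyroid ones: on the first principal component (36.8% of the variance) euthyroid replicates 13, 14 and 15 stood at -1.44, 54.76 and 22.29, and the hypothyroid arrays between -11.54 and -6.43. Within an array, the log2 signal had an SD of 2.219 to 2.285 on the euthyroid arrays and 2.288 to 2.296 on the hypothyroid ones, without overlap.

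Of 21789 clusters with exactly 1 gene symbol, 242 (1.11%) differed at an adjusted p under 0.05 by limma, a linear model with moderated variances, and are named "called" here. Of these, 139 (0.638% of those tested) were higher and 103 (0.473%) lower in hypothyroid liver, from 129 and 101 genes. In 16.7% of all clusters the groups did not overlap, and among the 242 called this held for all 242. The median called rise was 0.95 on the log2 scale (1.93-fold) and the median called fall 1.11 in size (2.16-fold). At least 4-fold changes were seen in 10 rises and 17 falls, and at least 8-fold changes in 3 and 7. Over all clusters the median difference was -0.0068. An unadjusted p under 0.05 by limma was reached by 2840 of the 21789 clusters, counting both directions.

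The number of calls depended on single arrays. Without euthyroid replicate 13 there were 864 calls, 665 of them higher and 199 lower. Without euthyroid replicate 14 there were 198 (84 higher, 114 lower) and without replicate 15 165 (97 and 68). Leaving out hypothyroid replicate 17, 18 or 20 gave 134 (66 and 68), 142 (67 and 75) and 147 (88 and 59). The balance of directions moved with the scaling too: with the array SD as a covariate 45 clusters were higher and 92 lower (32.8% higher), and after quantile normalization 141 and 160 (46.8% higher). The array SD did not overlap between the control states, so that covariate may take up part of the thyroid difference. No called cluster changed sign in any of these fits. Of the 242 calls, 97 (47 higher, 50 lower) were kept whichever of the 12 arrays was left out, and 20 of the 24 largest changes were among them.

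**Figure D1:**
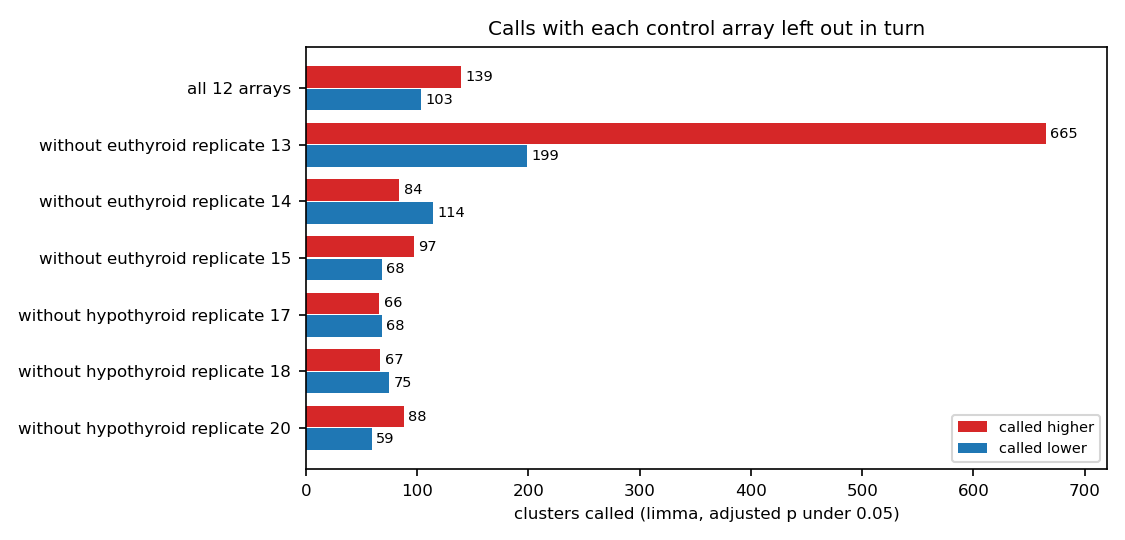
Bars give the number of clusters called higher (red) and lower (blue) in hypothyroid control liver with all 12 arrays and with each control array left out, on a linear axis from 0. The counts range from 66 to 665 higher and from 59 to 199 lower, and both highest counts come from the fit without euthyroid replicate 13.

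The fall of Dio1 had the smallest adjusted p of all clusters. Dio1, the type 1 deiodinase that converts thyroxine to the active hormone, stood at 8.14, 8.91 and 8.67 (log2) in euthyroid and at 3.21, 3.25 and 3.24 in hypothyroid livers. The 3 hypothyroid arrays lay close together and far below every euthyroid array. The difference was -5.34 ± 0.21 (SE), a 40.4-fold fall as measured (limma adjusted p = 2.71e-09). The hypothyroid values lie below the median of every array, where background can hold a reading up, so the true fold may be larger, and how far it is limited was not tested. Falls of similar size were measured for genes with provisional symbols, whose roles were not examined here. Gm21286, a predicted gene, fell from 7.25, 6.87 and 9.07 to 1.57, 1.52 and 1.78, a difference of -6.11 ± 0.53 (adjusted p = 1.93e-05). Whether the probes of Gm21286 also read related copies was not tested. 9030619P08Rik, also under a provisional symbol, fell by 4.64 on the log2 scale (adjusted p = 6.18e-08). In hypothyroid liver 22 of the 103 clusters called lower were at or under 4.71, the median level of all clusters. The limit set by background applies to their folds too.

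For reference, the 250 bases before the RefSeq start (assembly GRCm38.p6) are printed for Dio1 and for 2 other genes among the 12 largest falls, Sult2a8 and A1bg, because these hold matches to the half-site of nuclear receptors such as the thyroid hormone receptor. Capitals mark each AGGTCA, searched on both strands, and bases run 5′ to 3′ on the gene's strand (minus in all 3).
Dio1, chr4:107307169-107307418: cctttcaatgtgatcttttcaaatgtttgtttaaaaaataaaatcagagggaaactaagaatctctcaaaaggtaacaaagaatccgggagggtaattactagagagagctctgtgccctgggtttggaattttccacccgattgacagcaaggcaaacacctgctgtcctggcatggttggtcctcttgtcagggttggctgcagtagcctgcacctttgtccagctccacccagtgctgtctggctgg
Sult2a8, chr7:14438552-14438801: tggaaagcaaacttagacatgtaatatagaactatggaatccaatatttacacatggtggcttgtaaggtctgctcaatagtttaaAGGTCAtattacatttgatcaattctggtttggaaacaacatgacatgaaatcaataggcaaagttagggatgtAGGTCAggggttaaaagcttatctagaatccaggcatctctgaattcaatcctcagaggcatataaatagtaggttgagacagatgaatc
A1bg, chr15:60921271-60921520: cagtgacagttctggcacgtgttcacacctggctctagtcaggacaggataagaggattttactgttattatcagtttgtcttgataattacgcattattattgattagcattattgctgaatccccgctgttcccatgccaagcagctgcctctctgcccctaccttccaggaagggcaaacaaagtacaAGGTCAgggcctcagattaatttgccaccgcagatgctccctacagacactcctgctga
The window of Dio1 held no match, that of A1bg 1 and that of Sult2a8 2, while the second RefSeq start of Sult2a8 held none. Windows of Gm21286, Sult5a1, Ces3b, Tlcd2 and Nudt7, also among the largest falls, held none. Among the 12 largest rises, the window of Cd36, not printed here, held 1 match. Those of Nqo1, Gstm3, Cyp2d9, Nr4a1, Rgs16, Krt23, Raet1d and Serpina7 held none. Among all 32851 windows of the table, 14% held at least 1 match. The share was 18.2% of 110 windows from 78 genes called lower and 9.29% of 140 windows from 104 genes called higher. Windows of the same gene can overlap, so a match can be counted more than once. A match is a run of letters in this window and not a measured binding site.

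Among the genes that handle thyroid hormone, 17 of 18 listed were measured, 1 rose and 1 fell (11.8% called, against 1.11% of all clusters). The carrier protein of the blood, thyroxine-binding globulin (Serpina7), stood at 6.63, 4.21 and 5.97 in euthyroid and at 9.001, 8.84 and 10.14 in hypothyroid livers. It was the largest rise of the comparison, 3.72 ± 0.62 (SE) or 13.2-fold (limma adjusted p = 0.00628), with euthyroid replicate 14 the lowest array. With the array SD as a covariate the rise was 2.45. The receptors did not pass the test: Thra differed by 0.18 ± 0.13 (adjusted p = 0.602) and Thrb by 0.22 ± 0.20 (0.680). The deiodinases Dio2 and Dio3 differed by 0.09 and 0.10. Slco1a1, a carrier of organic anions that includes thyroid hormone among its substrates, stood at 8.19, 7.63 and 6.52 in euthyroid and 5.16, 3.59 and 2.64 in hypothyroid livers. Its groups did not overlap, but the difference of -3.65 missed the threshold (adjusted p = 0.0604). Of 10 measured corepressor and coactivator genes 0 were called by limma (1 higher at an unadjusted p under 0.05), and their differences ran from -0.02 to 0.34. The gene of NCoR itself (Ncor1) was not analysed here.

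Of the genes known to be induced by thyroid hormone in liver, 5 of 19 measured fell and 1 rose (31.6% called, against 1.11% of all clusters). Beside Dio1 the falls were Cyp7a1 (-2.42), Gpd2 (-1.62), Idh3a (-1.08) and Bcl3 (-1.08). Gpd2, the mitochondrial glycerol phosphate dehydrogenase that passes cytosolic reducing power to the respiratory chain, went from 7.26, 6.75 and 7.16 to 4.91, 5.79 and 5.61, a 3.08-fold fall (limma adjusted p = 0.000755). The other 13 members did not pass the test. Thrsp, a lipogenic protein also called Spot 14, stood at 8.49, 7.96 and 8.35 in euthyroid and 7.60, 8.30 and 6.72 in hypothyroid livers, and hypothyroid replicate 18 lay inside the euthyroid range. Its difference was -0.73 ± 0.30 (adjusted p = 0.317). Malic enzyme, Me1, differed by 0.12 and 0.13 on its 2 clusters (adjusted p = 0.864 and 0.859), and the transcription factor Klf9 by -0.0013 (0.999). The 1 rise was the coactivator Ppargc1a, by 1.26 and 1.35 on its 2 clusters. The median over the 19 genes was -0.09. With the array SD as a covariate 3 of the 6 stayed called. The 1.26 cluster of Ppargc1a was not called without hypothyroid replicate 18 or 20 (adjusted p up to 0.0694), Cyp7a1 not without euthyroid replicate 15 or hypothyroid replicate 17 (up to 0.0817), and Bcl3 not without euthyroid replicate 14 or 15 or hypothyroid replicate 18 or 20 (up to 0.101).

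Of 24 bile acid genes 3 rose and 2 fell (20.8% called, against 1.11% of all clusters). Cyp7a1, the rate-limiting enzyme of bile acid synthesis, stood at 8.16, 8.13 and 9.48 in euthyroid and at 5.40, 6.75 and 6.37 in hypothyroid livers, a 5.35-fold fall (limma adjusted p = 0.0140). Cyp27a1, which starts the alternative pathway, fell by 0.82 on the log2 scale. The peroxisomal oxidase Acox2 rose by 0.64. Over the 11 synthesis genes the median was -0.44, with 1 called higher and 2 lower. Of 8 transporters 2 rose, both of them exporters of the basolateral membrane, Abcc3 by 1.03 (adjusted p = 0.000736) and Abcc4 by 1.55 (0.00189). Abcc4 stood at 5.52, 5.26 and 5.17 in euthyroid and 6.86, 6.44 and 7.31 in hypothyroid livers. The bile salt uptake carrier Slc10a1 (-0.02) and the canalicular pump Abcb11 (-0.22) did not pass. The calls of both transporters held without any single array and in the other settings. Those of Acox2, Cyp27a1 and Cyp7a1 did not: Cyp27a1 was lost without hypothyroid replicate 18 or 20 (up to 0.0905), and Acox2 without 9 of the 12 arrays (all but euthyroid replicate 14 and mutant euthyroid replicates 3 and 4; up to 0.187). Cyp7a1 was lost as given above.

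Among lipid genes the lipase Lpl and the uptake protein Cd36 rose most, and the calls in fatty acid synthesis went in both directions. Lpl, which releases fatty acids from lipoproteins and is low in adult liver, went from 4.89, 4.28 and 4.66 to 7.11, 7.97 and 8.25, an 8.96-fold rise (limma adjusted p = 0.000611). Cd36, a fatty acid uptake protein, rose from 7.67, 6.61 and 8.04 to 9.06, 9.22 and 9.58 (3.61-fold, adjusted p = 0.00199). The very low density lipoprotein receptor, Vldlr, rose by 1.55 (adjusted p = 0.0117, and 0.0581 without hypothyroid replicate 20). Apof, an inhibitor of lipid transfer, fell from 10.57, 10.52 and 10.72 to 9.67, 9.56 and 9.56 (adjusted p = 0.00079). In all, 2 of 24 lipoprotein genes were called higher and 1 lower (12.5%, against 1.11% of all clusters), and the other 11 measured apolipoproteins did not pass.

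Of 27 fatty acid and triglyceride synthesis genes, 3 rose and 2 fell (18.5% called, against 1.11% of all clusters), with a median of 0.0038. The 4 calls among 9 elongation and desaturation genes were Scd1 (0.82) and Scd2 (0.92), the delta-9 desaturases, as rises, and Elovl3 (-2.17) and the delta-6 desaturase Fads2 (-0.73) as falls. Gpam, the first enzyme of glycerolipid assembly, rose by 0.67. Fatty acid synthase, Fasn (-0.15), and the regulator Srebf1 (0.0038) did not pass. These calls were fragile. Without hypothyroid replicate 17, 18 or 20, or euthyroid replicate 14 or 15, 1 of the 5 stayed called in each case, with adjusted p up to 0.150. Scd1 was also lost without mutant euthyroid replicate 2 or mutant hypothyroid replicate 6. Of 20 genes of cholesterol synthesis and uptake 0 were called by limma (1 lower at an unadjusted p under 0.05), with values such as Sc5d (-0.52) and Lss (0.40). Of 28 genes of fatty acid oxidation and ketogenesis only Ppargc1a was called (3.57%, against 1.11% of all clusters), and their median was 0.06. Of 25 oxidative phosphorylation genes 0 were called by limma (1 higher at an unadjusted p under 0.05), with the largest values in Sdhb (0.33) and Sdha (0.31).

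Glycogen genes rose where they were called. Of 7 measured, 3 rose and 0 fell (42.9% called, against 1.11% of all clusters), with a median of 0.82, while 6 gluconeogenic and 5 glycolytic genes had 0 calls by limma (3 glycolytic genes were higher at an unadjusted p under 0.05). Ugp2, which makes the UDP-glucose used for glycogen, stood at 8.32, 8.26 and 8.43 in euthyroid and at 9.52, 9.25 and 9.70 in hypothyroid livers (2.22-fold, adjusted p = 0.000611). Liver glycogen synthase, Gys2, rose by 0.94 and the branching enzyme Gbe1 by 0.82. Ppp1r3c, a glycogen-targeting phosphatase subunit, differed by 1.28 without passing (0.0761), and the glycogen phosphorylase Pygl by -0.37. The call of Ugp2 held without any single array. That of Gys2 was lost without euthyroid replicate 14 or hypothyroid replicate 17, 18 or 20 (up to 0.114), and that of Gbe1 without 10 of the 12 arrays, all but euthyroid replicate 13 and mutant hypothyroid replicate 7 (up to 0.178).

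Among glutathione transferases, which attach glutathione to reactive compounds, the calls were rises. Of 14 measured, 6 were called higher and 0 lower (42.9% called, against 0.638% of all clusters called higher). Gstm3 changed most. Its cluster 10501218 stood at 9.17, 8.92 and 9.34 in euthyroid and at 11.97, 11.75 and 12.04 in hypothyroid livers, a 6.88-fold rise (limma adjusted p = 6.73e-08), and its cluster 10362511 rose 4.30-fold (1.31e-06). Gstm4 rose from 9.25, 8.92 and 8.93 to 10.46, 10.13 and 10.54 (2.54-fold, 0.000125). Gstm6 (1.18), Gstp1 (1.18), Gstm1 (1.14) and Gstm2 (1.02) were also called. Gstm3, Gstm4, Gstm1, Gstm2 and Gstm6 kept their calls without any single array, but Gstm6 not with the array SD as a covariate (0.0688). Gstp1 did not (up to 0.168), being lost without euthyroid replicate 15, hypothyroid replicate 17 or 20, mutant euthyroid replicate 2 or mutant hypothyroid replicate 5 or 6. The Gstm genes lie in a cluster of near-identical copies, so a probe of one may also read another, which was not tested. Gstp1 lies on chromosome 19, outside that cluster on chromosome 3. Whether the probes of Gstp1 also read other Gstp genes was not tested either.

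Of 9 other NRF2 targets 1 was called (11.1%, against 1.11% of all clusters). It was Nqo1, a quinone reductase and common marker of the oxidant-responsive factor NRF2. It stood at 5.91, 5.45 and 5.62 in euthyroid and at 7.80, 7.42 and 7.60 in hypothyroid livers (3.85-fold, limma adjusted p = 7.98e-06), and the call held in every fit. The other 8 targets did not pass, among them the glutamate-cysteine ligase subunits Gclc (0.44) and Gclm (0.22), and heme oxygenase, Hmox1 (-0.30). The letters TGACNNNGC, the core of the element that NRF2 binds, were found on either strand in 10.2% of all windows of 250 bases and in 13.6% of those of genes called higher. Neither Gstm3 nor Nqo1 held a match.

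Among 53 cytochrome P450 and phase II enzymes, 8 fell and 1 rose (17% called, against 1.11% of all clusters), and the median was -0.0096. Both of the largest falls were sulfotransferases, which add sulfate to steroids and drugs. Sult2a8 stood at 9.65, 8.83 and 9.12 in euthyroid and at 3.83, 5.81 and 4.0 in hypothyroid livers (25.2-fold, limma adjusted p = 2.02e-05), with hypothyroid replicate 18 the highest of its group. Sult5a1 went from 7.03, 8.68 and 7.04 to 4.13, 4.02 and 3.38 (13.4-fold, 6.54e-05). Among carboxylesterases Ces3b fell from 10.65, 10.46 and 10.17 to 7.89, 8.02 and 6.07 (8.61-fold, 0.000944) and its neighbour in the family Ces3a fell by 1.22, while Ces1g rose by 1.00 (0.00204). The glucuronosyltransferase Ugt2b37 fell by 2.36. The P450s Cyp3a44 (-1.74), Cyp2f2 (-0.99) and Cyp3a11 (-0.92) fell. The drug-sensing receptors Nr1i2 (0.48) and Nr1i3 (0.42) did not pass. Lost calls were Ugt2b37 without euthyroid replicate 15 or hypothyroid replicate 18 or 20 (up to 0.128), Cyp3a44 without euthyroid replicate 15 (0.0553), Cyp3a11 without euthyroid replicate 14 or hypothyroid replicate 17 or 20 (0.142), Ces3a without euthyroid replicate 14 or hypothyroid replicate 18 or 20 (0.118) and Cyp2f2 without hypothyroid replicate 20 (0.0511).

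Of the genes known to differ between male and female liver, most calls were falls. Of 23 measured, 5 fell and 1 rose (26.1% called, against 1.11% of all clusters), with a median of -0.74. The 2 kinds differed: the median was -1.56 over the 12 female-biased genes, 2 of them positive. Over the 11 male-biased genes it was 0.013, with 6 positive. Among 12 female-biased genes A1bg, Cyp17a1 and Cyp3a44 fell. A1bg, a plasma glycoprotein, spread widely in euthyroid liver (7.81, 7.03 and 10.27) and stood at 4.07, 4.41 and 3.59 in hypothyroid liver, a difference of -4.35 ± 0.92 (limma adjusted p = 0.0314). It was not called without euthyroid replicate 15 or hypothyroid replicate 17, 18 or 20 (up to 0.130), nor with the array SD as a covariate (0.107). Cyp17a1, a steroid hydroxylase, fell from 9.45, 10.19 and 10.74 to 7.22, 8.21 and 7.39 (0.00095). Among 11 male-biased genes Nudt7, which cleaves coenzyme A in peroxisomes, fell from 9.51, 8.72 and 8.95 to 6.54, 6.62 and 6.02 (1.11e-05), and Elovl3 fell, a call lost without euthyroid replicate 14 or hypothyroid replicate 17, 18 or 20 (up to 0.103). Cyp2d9 rose from 7.64, 7.48 and 6.29 to 9.49, 8.66 and 9.61 (4.33-fold, 0.0212), a call lost without euthyroid replicate 15 or hypothyroid replicate 17 or 20 (up to 0.109). The largest positive difference among the male-biased genes, 3.10, was not called. Single arrays stood apart in genes of this kind, named after their values were seen. Cyp2b9 was at 2.56 on hypothyroid replicate 17 and between 10.85 and 11.97 on the other 5 control arrays, and Cyp2b13 at 2.48 against 8.73 to 10.07. Within the euthyroid group, the male-biased Cyp4a12a was at 6.36 on replicate 13 and at 2.76 and 2.14 on replicates 14 and 15.

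Growth hormone and IGF genes fell where they were called. Of 13 measured, 3 fell and 0 rose (23.1% called, against 1.11% of all clusters), with a median of -0.41. Igfals, which holds IGF in its circulating complex, went from 8.46, 8.75 and 8.97 to 8.04, 7.88 and 7.53 (limma adjusted p = 0.0168), and the growth hormone signal transducer Stat5a from 6.77, 6.83 and 6.77 to 6.09, 6.14 and 5.86 (0.0143). The binding protein Igfbp4 fell by 0.73 (0.0397). Igf1 itself had groups that did not overlap, 9.59 to 10.16 against 9.20 to 9.51, and a difference of -0.56 that did not pass (0.117). None of the 3 calls held in all fits without 1 array: without hypothyroid replicate 20 0 of the 3 were called, Igfals was also lost without euthyroid replicate 15 or hypothyroid replicate 18, and Igfbp4 without any 1 of the arrays other than euthyroid replicate 13 (up to 0.182). With the array SD as a covariate 0 were called.

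Other lists held single changes. Their shares called ran from 4.55% (cell cycle and replication) to 10% (liver zonation), against 1.11% of all clusters. Ccnd1, the cyclin that drives entry into the cell cycle, fell from 7.28, 7.44 and 8.04 to 5.54, 5.50 and 5.72 (3.996-fold, limma adjusted p = 0.00128), and the other 21 cell cycle and replication genes did not pass, with differences from -0.23 to 0.42. Prodh, which degrades proline, fell by 0.92 and was the 1 call among 16 amino acid and urea genes. Slc25a30, a mitochondrial carrier, fell by 1.55, a call lost without euthyroid replicate 15 or hypothyroid replicate 17 (up to 0.0929) and the 1 call among 13 pumps and carriers. Of 25 stress genes 2 rose. Nr4a1, an immediate early nuclear receptor, stood at 4.32, 4.15 and 3.97 in euthyroid and at 6.90, 7.93 and 5.66 in hypothyroid livers (6.41-fold, 0.00142), and Trib3, a pseudokinase of the integrated stress response, rose by 1.20 (0.0192), not called without hypothyroid replicate 17, 18 or 20 (up to 0.0957). Among zonation genes 2 of 20 were called, both periportal and in opposite directions: Etnppl, a phospholyase, rose 2.40-fold (0.00254) and Cyp2f2 fell. The 13 pericentral genes had 0 calls by limma (5 lower at an unadjusted p under 0.05). Of all 21789 clusters, 2840 were under that p in either direction.

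Clock genes and acute phase genes held 0 calls by limma. Of all 21789 clusters, 2840 had an unadjusted p under 0.05 in either direction. Of 18 clock genes 16 had a positive difference and 7 were higher at an unadjusted p under 0.05, with a median of 0.45. Euthyroid replicate 13 stood apart from its group here: Dbp, a clock output factor, was at 4.88, 7.12 and 8.07 in euthyroid and at 8.33, 8.41 and 7.23 in hypothyroid livers. Ciart, a clock repressor, was at 3.30, 3.74 and 3.96 and at 5.52, 5.86 and 3.95. Without hypothyroid replicate 20 Ciart was called (2.02, adjusted p = 0.00104), and 2 clock genes were called in the fit without euthyroid replicate 13 as well as in that without hypothyroid replicate 20. The time of day at which livers were taken is not given in the sources used here, and its part in these values was not tested. Of 25 acute phase genes 8 were lower at an unadjusted p under 0.05. The metallothioneins Mt1 (8.59 on euthyroid replicate 13, 10.62 to 11.62 on the others) and Mt2 (7.22 against 10.19 to 11.40) again set replicate 13 apart.

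The remaining genes among the largest rises had varied roles. Raet1d, a ligand of the NKG2D immune receptor, went from 5.27, 3.59 and 4.67 to 7.20, 7.46 and 8.54 (9.34-fold, limma adjusted p = 0.00073). The keratin Krt23 stood at 4.54, 3.68 and 3.597 and then at 6.44, 6.75 and 6.76 (6.54-fold, 1.89e-05). Rgs16, which shortens G protein signals, rose 6.46-fold (0.0101), a call lost without hypothyroid replicate 18 or 20 (up to 0.0599). The galactose-binding lectin Lgals1 rose from 6.64, 5.85 and 6.69 to 8.41, 8.46 and 8.93 (0.00189). Among the largest falls, Slc22a7, an organic anion carrier, went from 6.55, 7.15 and 6.60 to 3.75, 3.89 and 3.88 (7.61-fold, 3.85e-05), and Tlcd2, a membrane lipid regulator, from 9.10, 9.17 and 8.91 to 5.63, 6.87 and 6.17 (7.14-fold, 2.86e-05).

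**Figure D2:**
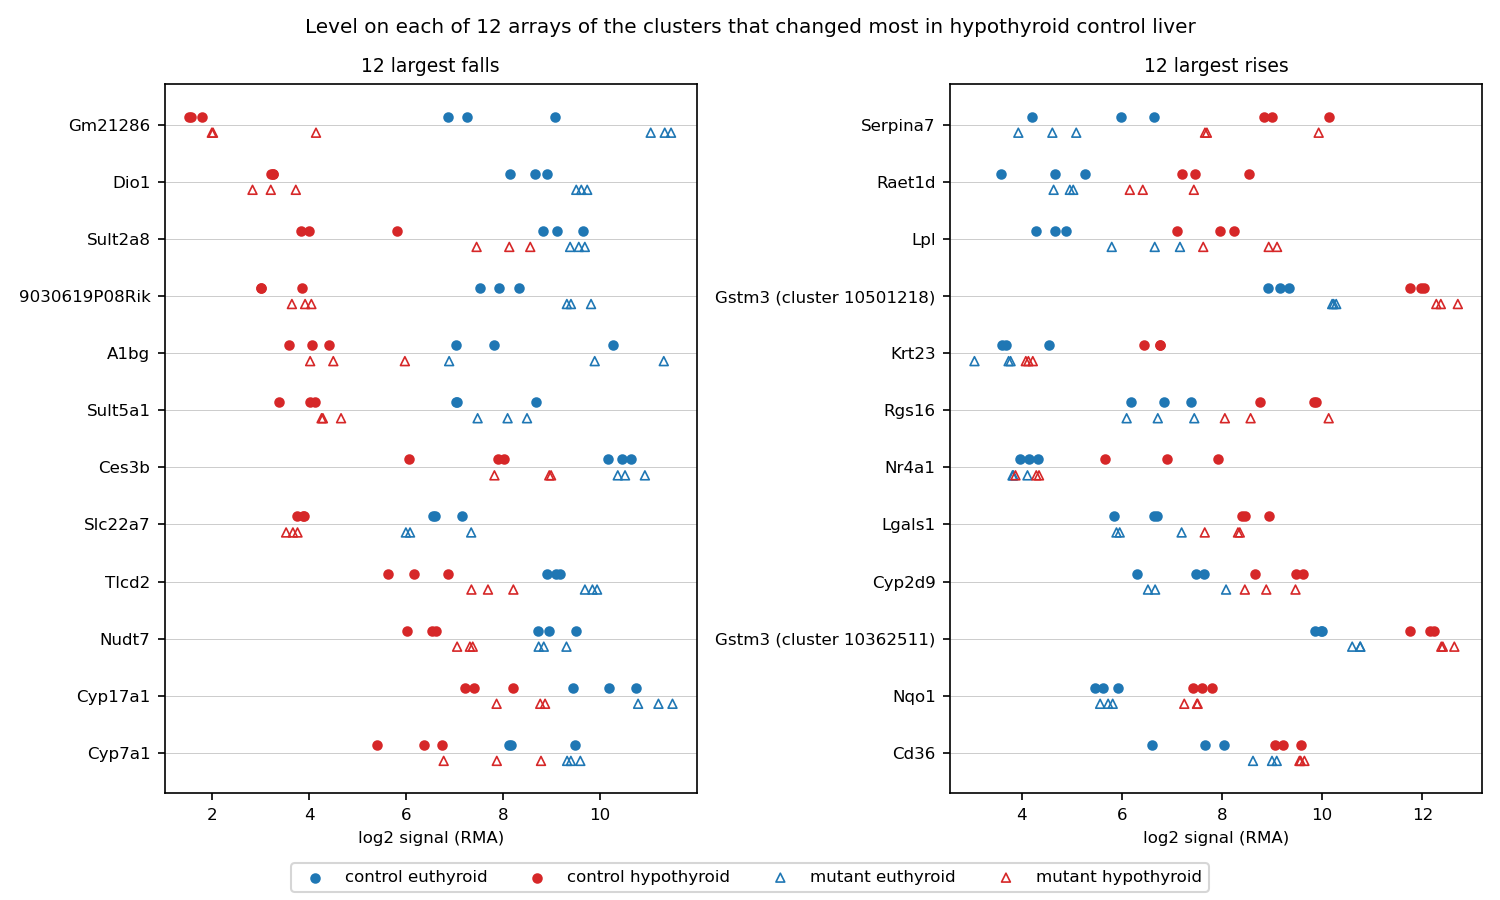
Each dot is the log2 signal of 1 array for the 12 largest falls (left) and 12 largest rises (right) of the control comparison, with controls as filled circles, mutants as open triangles, euthyroid in blue and hypothyroid in red. The filled red and blue dots do not overlap in any row, Dio1 has the tightest hypothyroid group (3.21 to 3.25), and in Krt23 and Nr4a1 the open red triangles lie near the euthyroid arrays.

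**Figure D3:**
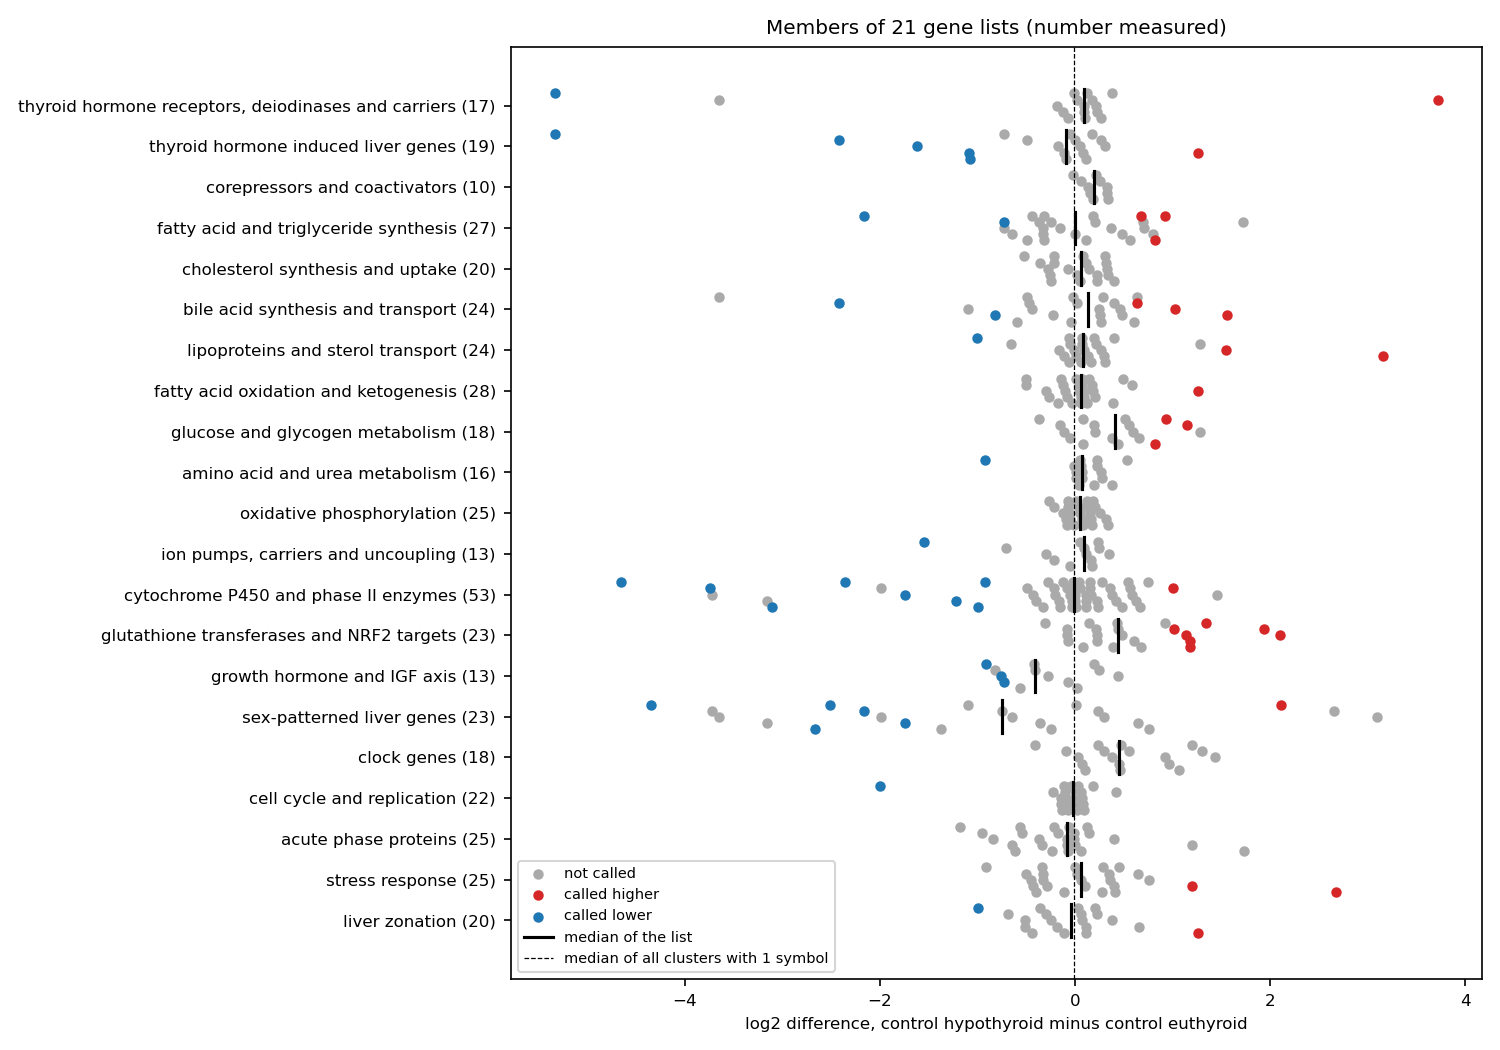
Each dot is the log2 difference, hypothyroid minus euthyroid controls, of 1 member of the list named on the left (number measured in brackets), coloured red if called higher, blue if called lower and grey if not called. Black bars are list medians and the dashed line the median of all clusters (-0.0068). The clock list (0.45, with 0 called) and the joint list of glutathione transferases and NRF2 targets (0.44) stand furthest to the right. The sex-patterned list stands furthest to the left (-0.74).

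Marker genes of other liver cells were set beside these results. All 12 Kupffer cell and macrophage markers had a negative difference, with a median of -0.53. None was called by limma (4 were lower at an unadjusted p under 0.05, against 2840 of all 21789 clusters in either direction). In 9 of the 12 the groups did not overlap, against 16.7% of all clusters. Their summed log2 level was 70.29 to 71.7 in euthyroid and 64.17 to 66.31 in hypothyroid livers. Clec4f, a lectin of Kupffer cells, stood at 7.33, 7.23 and 7.15 and then at 6.33, 6.59 and 6.10 (adjusted p = 0.0972). In a piece of liver, fewer cells of a type and less RNA per cell cannot be told apart, and the part of these cells in the falls above was not tested. Sinusoidal endothelial markers had a median of 0.24 (7 of 8 positive), a summed level of 52.29 to 53.86 against 54.47 to 55.69, and 0 calls by limma (1 higher at an unadjusted p under 0.05). Hepatocyte markers had a median of 0.07. Their summed level was 145.2 to 145.9 against 149 to 149.2, with 1 member, Serpina1d, at 7.74, 8.85 and 8.36 against 11.08, 11.18 and 11.54 (adjusted p = 0.124) in a family of near-identical copies. Of stellate, cholangiocyte, T, B, neutrophil, erythroid, adipocyte and pancreas markers 0 were called by limma. All 7 T and NK cell, all 4 B cell and all 7 neutrophil markers had a mean over the 6 control arrays at or under 4.71. That is the median level of all tested clusters over the 12 arrays. The same held for 4 of 5 adipocyte, 4 of 5 cholangiocyte and 4 of 6 pancreas markers.

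The same change of thyroid state in mutants gave 241 calls (1.11%), 142 higher and 99 lower. The group means of the 2 comparisons come from different arrays, but both call lists use 1 estimate of spread from all 12 arrays, so their overlap is not independent. Without 1 mutant array the control comparison had 207 to 247 calls. The mutant comparison had from 89 calls without mutant hypothyroid replicate 7 to 620 without control euthyroid replicate 14. It had 36 with the array SD as a covariate. Of the 139 control rises, all 139 had the same sign in mutants and 69 (49.6%) were called there. Of the 103 control falls, 102 had the same sign and 58 (56.3%) were called. The 127 shared calls were 52.5% of the control calls and 52.7% of the mutant calls. The median rise was 0.95 in controls and 0.73 in mutants, and the median fall -1.11 and -0.86, but these clusters were picked by their control values and not by their mutant values. Dio1 fell by 5.34 on the log2 scale in controls and by 6.37 in mutants. Its hypothyroid means were alike and low (3.23 and 3.25), and the euthyroid means were 8.57 and 9.62. The gap between the measured falls therefore came from the euthyroid readings. Both hypothyroid means lie below the median of every array, where background can hold a reading up, so whether the true falls differ cannot be told. The test of the difference did not call Dio1 (limma adjusted p = 0.9999). Serpina7 rose by 3.72 and by 3.89.

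The test of the difference itself, the thyroid effect in controls minus that in mutants, called 0 of 21789 clusters (0%) by limma, with 600 (2.75%) at an unadjusted p under 0.05 and a smallest adjusted p of 0.287. That smallest value belonged to Krt23, with 2.71 in controls and 0.62 in mutants, a difference of 2.09 ± 0.33 (SE). Nr4a1 rose by 2.68 in controls and differed by 0.25 in mutants (unadjusted p of the difference 0.000342). Sult2a8 fell by 4.65 and differed by -1.50 in mutants (6.47e-05), and Gpd2 fell by 1.62 and differed by -0.63 (0.00432). Single arrays changed this result. Krt23 was called without control euthyroid replicate 13 (adjusted p = 0.00415), Sult2a8 without control hypothyroid replicate 18 (0.00217) and Nr4a1 without control hypothyroid replicate 20 (0.00958), each as the 1 call of that fit.

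**Figure D4:**
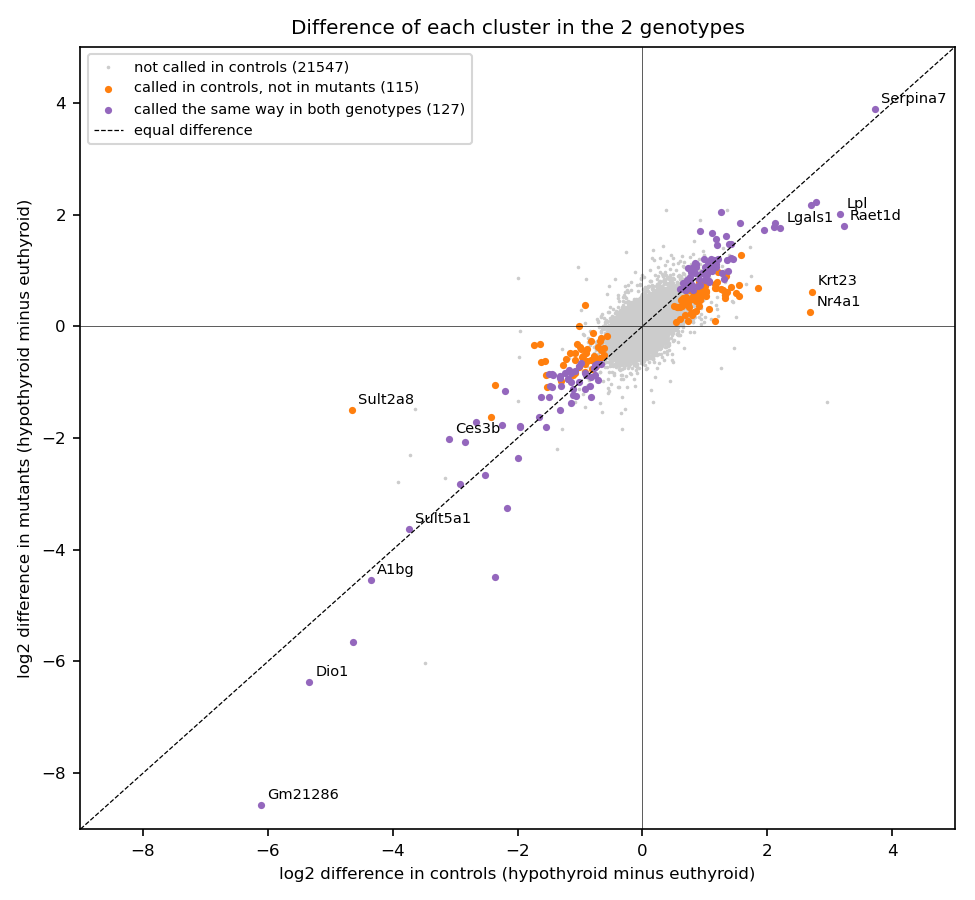
Each point is 1 of 21789 clusters, with the log2 difference in controls (hypothyroid minus euthyroid) on the horizontal and in mutants on the vertical axis, and the dashed line marks equal differences. The 127 purple points were called the same way in both genotypes and the orange points in controls but not in mutants, and Krt23, Nr4a1 and Sult2a8 lie off the line toward 0 on the mutant axis.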

How the data were processed

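Total liver RNA of the 12 samples was labelled as cDNA and hybridised to Affymetrix mouse Gene 1.0 ST arrays, per the labels' protocols. The deposited values are on the log2 scale and were made with RMA, per the submitters' processing notes, with version, options and scan times not given in the sources used here. No further normalization was applied in the main fit. Of 35557 transcript clusters, 21789 had exactly 1 symbol in the platform annotation and were tested, 1621 had several and 12147 none. limma 3.58.1 in R 4.3.3 fitted the means of the 4 groups over all 12 arrays, so the mutants shared the estimate of spread (prior df 6.83, residual df 8), with Benjamini-Hochberg adjustment over all 21789 clusters. Scripts were tested on simulated data.

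The members, gene lists and marker lists were chosen with earlier results of these data known, so list counts are descriptions and were given no set test. Named were the 12 largest rises and falls among called clusters whose groups did not overlap, up to 4 called members a list in each direction (or the 2 largest where none was called), and Thra, Thrb, Dio1, Thrsp, Me1, Gpd2 and Klf9. Other list members were named after their values were seen: Bcl3, Ces3a, Cyp3a11, Cyp3a44, Gstm1, Gstm2 and Gstm6 to complete the called members of a list, and the uncalled genes given as examples. A gene with several clusters is described in a list by the one with the highest mean. List genes without a cluster of exactly 1 symbol were not analysed here. Promoter windows came from RefSeq. Alternatives were the compared arrays alone, quantile normalization, median centring, clusters above the median level, array SD as a covariate, an intensity trend, a limit of 1 (log2), array weights and leaving out each array.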

Additional observations from a re-analysis of the deposited data

Results flagged for a closer look

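The 13768 clusters without exactly 1 gene symbol lay outside the comparison, and limma called 31 of them (0.225%) in control liver, 11 higher and 20 lower in the hypothyroid state. Of the 31, 11 carry several symbols and 20 none. They were singled out because they hold a signal in data that the comparison did not use, and they are unnamed here.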

How the results depend on the processing

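No paired analysis was possible because the groups compared share no replicate number. The 242 calls (139 higher, 103 lower) became 135 (69 and 66) with the compared arrays alone, 137 (45 and 92) with the array SD as a covariate, 301 (141 and 160) after quantile normalization and 127 (64 and 63) with a limit of 1 on the log2 scale. Default array weights did not converge and were not used. Gene-by-gene weights, chosen after seeing the data, gave 1403 (841 and 562), with weights of 0.448, 0.289 and 3.52 for euthyroid replicates 13, 14 and 15. Leaving out 1 array gave 134 to 864 calls, 66 to 665 higher and 59 to 199 lower. The test between genotypes called 0 clusters, 1 with gene-by-gene weights and 0 to 1 without 1 array. The 241 mutant calls became 36 with the array SD, 742 with weights, 105 with the limit of 1, and 89 to 620 without 1 array. Of 242 calls 82 were kept in all fits without 1 array and in the 7 other settings, apart from the limit of 1. A call whose cluster was not tested in a setting was counted as kept there. Among clusters above the median level, 225 of the 242 were tested. Uncalled genes changed sign: Klf9 was 0.028 after centring, 0.080 with the array SD and 0.11 with weights, and -0.17 to 0.23 without 1 array; Me1 (10595480) was -0.027 after quantile normalization, -0.0495 with the array SD and -0.078 to 0.37 without 1 array, and its other cluster (10405753) -0.073 to 0.39; Thrb was -0.10 with the array SD and -0.015 to 0.43 without 1 array. The cause was not tested. With 3 arrays a group, the median SE of a difference was 0.156 on the log2 scale.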

Other observations

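Called genes outside the lists are given here, chosen after their values were seen. The largest were falls of Paqr9, a membrane receptor family member (-2.37), Mup3, a major urinary protein (-2.24), the epithelial adhesion molecule Cdh1 (-2.20), Osgin1 (-1.97) and the leukemia inhibitory factor receptor Lifr (-1.97). The monoglyceride hydrolases Mgll (-1.62) and Abhd6 (-1.57) and the sorting receptor Sort1 (-1.54) also fell. Mup genes are near-identical copies, so probes may read several of them. All of these calls by limma held with any 1 array left out.

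Rises outside the lists included the adipogenic nuclear receptor Pparg (1.37), the choline phosphotransferase Chpt1 (1.38), the aldehyde oxidase Aox1 (1.20), the iron-binding protein Pir (1.12), the transferase Gstp3 (1.06), the lysosomal hexosaminidase subunit Hexa (0.91) and the mitophagy receptor Bnip3 (0.91 and 0.95 on 2 clusters). These calls held with any 1 array left out, but those of Aox1 (adjusted p = 0.0622) and both clusters of Bnip3 (0.0701 and 0.0562) were lost with the array SD as a covariate.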
